A study of Mus musculus with 5 samples.

Results

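Complement is a set of secreted proteases, opsonins and membrane regulators that mark and lyse targets. It is started by the classical, lectin or alternative route, and all routes meet at the cleavage of C3. In the classical route C1r and C1s, proteases bound to C1q, cleave C4 and C2, whose fragments form a C3 convertase. In the alternative route factor B takes the place of C2. C1 inhibitor stops C1r and C1s, and CD55 speeds the decay of convertases on the cell surface. The liver makes most circulating complement, and fat tissue is a well-known further source, above all of factor D (adipsin).

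The genes described are 9 named complement components and regulators, *C1ra*, *C1s1*, *C2*, *C3*, *C4a*, *C4b*, *Cfb*, *Serping1* and *Cd55*. They were matched by gene symbol to the probe annotation of the array, and 8 of the 9 had a named probe set, 1 each. *C3* had none and is not analysed here. These 8 stand among 19505 genes with a named probe set and 22206 probe sets in all. *C4a* and *C4b* are near-identical copies in the mouse. The probe sequences were not used here, so whether their probe sets read the same transcripts is not known, and they are given both apart and as 1 signal.

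The values are log2 signals of 5 Clariom S Mouse arrays run on RNA of 3T3-L1, a preadipocyte line of the mouse. For the 3 arrays of MM-3T3-L1s (MM.1S pre-exposed in the plots), confluent preadipocytes shared RPMI-1640 medium for 48 h with cells of the human myeloma line MM.1S across a 0.4 µm transwell membrane. For the 2 control arrays the preadipocytes spent those 48 h in the same medium alone. The myeloma cells were then taken away, and the cells of both groups were differentiated over 7 days, with 0.5 mM IBMX, 1 µM dexamethasone and 5 µg/mL insulin for 4 days, insulin for 2 days and basal medium for 1 day. Every sample therefore received dexamethasone, and the arrays report the end of differentiation and not the exposure itself. Both groups come from 1 cell line. The labels do not say whether replicates were separate cultures, so the p-values cover the spread of these 5 samples alone, which may be technical.

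The arrays had similar medians, 4.47 to 4.53 in MM-3T3-L1s and 4.48 to 4.52 in controls. A background level of 3.59 was set at the 95th percentile of 1450 genes for receptors of smell, pheromones and taste. The cells carried the defining transcripts of adipocytes. *Adipoq*, which encodes adiponectin, read 11.79, 11.86 and 11.79 in MM-3T3-L1s and 11.80 and 11.67 in controls. *Fabp4*, the adipocyte fatty acid-binding protein, read 12.62, 12.60 and 12.53 in MM-3T3-L1s and 12.29 and 12.25 in controls, and *Plin1*, of the lipid droplet coat, read 10.09 to 10.25 in MM-3T3-L1s and 9.83 to 10.22 in controls. The comparison used the two-sided moderated test of limma. "Higher" and "lower" below describe MM-3T3-L1s relative to controls and mean an unadjusted p of 0.05 or less together with a fold above 1.5, the thresholds the study used. By this definition 0.91% of all probe sets were higher and 1.44% lower.

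Of the 8 measured complement genes, 3 were higher in MM-3T3-L1s, none was lower and 5 were neither. The higher genes were *C4a*, *C4b* and *Cfb*, which share a stretch of chromosome 17. Counted as 1 signal, C4 and *Cfb* made 2 higher of 7. The genes of C1r, C1s and C1 inhibitor differed little between groups, and *C2* and *Cd55* lay mostly below the background level. The median log2 fold change of the 8 was 0.15, with a range of -0.45 to 1.27, against a median of 0.01 over all probe sets. With Benjamini-Hochberg adjustment over all 22206 probe sets, limma left 0 of the 8 and 0 of all probe sets at 0.05 or less. At the unadjusted p, 3 of the 8 passed upward and 0 downward, where 7.58% of all probe sets passed, 3.48% upward and 4.11% downward. The methods' test, an analysis of variance gene by gene on the same values, called 2 of the 8 higher, *C4a* and *C4b*, and 0 lower, where it called 0.468% of all probe sets higher and 0.811% lower. It also left 0 of the 8 after adjustment.

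**Figure D1:**
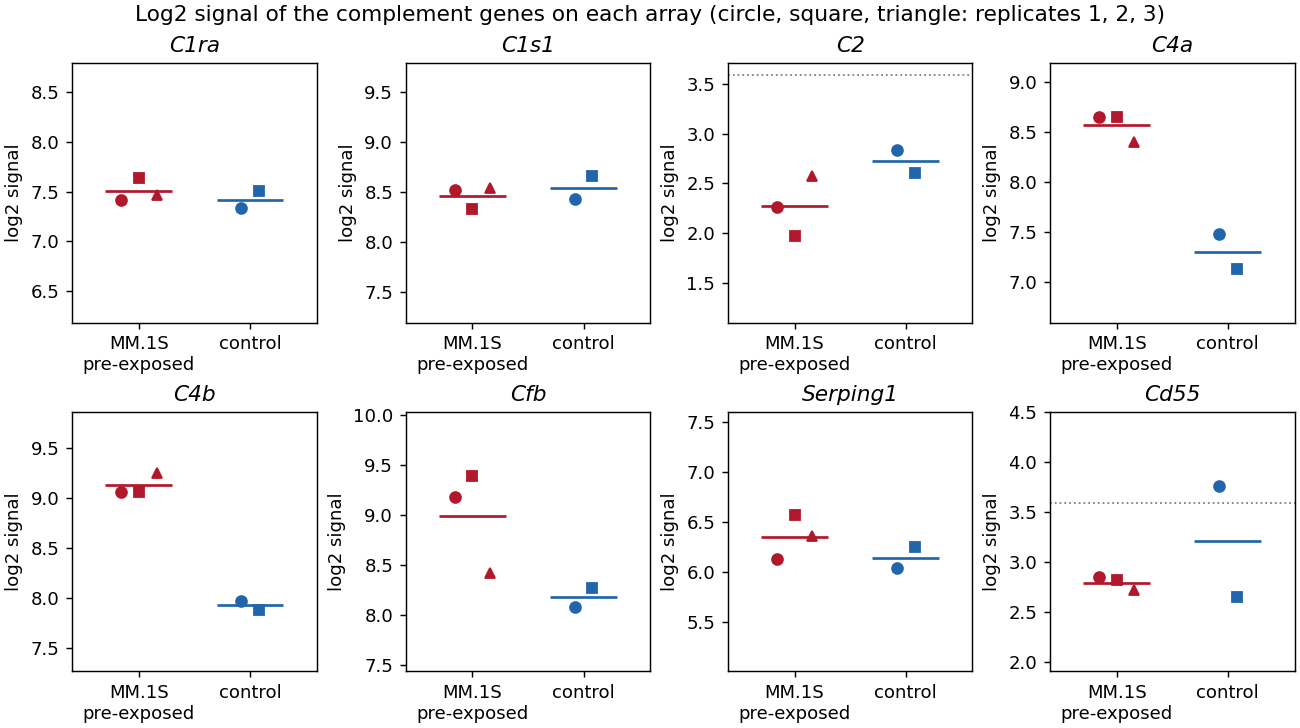
Log2 signal (y axis, each panel spanning the same height) of the 8 complement genes on each array, with the 3 MM-3T3-L1 arrays (red) left of the 2 control arrays (blue). Horizontal bars are group means and the dotted line is the background level of 3.59. The MM-3T3-L1 arrays of *C4a* and *C4b* lie well above both controls, those of *Cfb* spread from 8.42 to 9.39, and *C2* lies below the background on every array.

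Complement C4 is the precursor of C4b, the fragment that binds covalently to targets and anchors the classical C3 convertase. The gene *C4b* encodes mouse C4. Its log2 signal was 9.06, 9.06 and 9.25 in MM-3T3-L1s and 7.97 and 7.88 in controls. Every MM-3T3-L1 array was above both controls, and the gap between the groups was many times the spread within either. MM-3T3-L1s averaged 9.13 ± 0.108 (SD, n = 3), against 7.93 ± 0.0646 (SD, n = 2) for controls, which is a fold change of 2.30 (95% interval 1.88 to 2.82). On the log2 scale limma put the change at 1.20 (SE 0.12) with an adjusted p of 0.227, and it ranked 36 in size among all probe sets, both directions counted. When limma's prior followed a trend with signal and was estimated robustly, the adjusted p was 0.0413, in a fit that put 0.0405% of all probe sets at 0.05 or less.

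*C4a* encodes the sex-limited protein of the mouse, a C4 relative known to lack the hemolytic activity of C4, and the RefSeq table lists it as a transcribed pseudogene in the reference strain. It read 8.65, 8.65 and 8.40 in MM-3T3-L1s and 7.47 and 7.13 in controls. Again no MM-3T3-L1 array overlapped the controls. MM-3T3-L1s averaged 8.57 ± 0.148 (SD, n = 3), against 7.30 ± 0.244 (SD, n = 2) for controls, which is a fold change of 2.41 (95% interval 1.83 to 3.15). The change on the log2 scale was 1.27 (SE 0.16), with an adjusted p of 0.281. With the trend and the robust prior its adjusted p was 0.0692.

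As 1 signal, the mean of *C4a* and *C4b* was 8.86, 8.86 and 8.82 in MM-3T3-L1s and 7.72 and 7.50 in controls. The spread among the MM-3T3-L1 arrays was smaller for this mean than for either gene, at 8.85 ± 0.0198 (SD, n = 3), against 7.61 ± 0.154 (SD, n = 2) for controls. The fold change was 2.35 (95% interval 1.92 to 2.88), with an adjusted p of 0.198 from limma. The distance from *C4b* to *C4a* was not constant, since the log2 signal of *C4a* minus that of *C4b* was -0.41, -0.41 and -0.85 in MM-3T3-L1s and -0.50 and -0.75 in controls. That distance did not separate the groups, with a difference of 0.06 between their means and an exact permutation p of 0.8, two-sided. For any single value the exact test of 3 arrays against 2 cannot give a p below 0.1.

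Factor B, the product of *Cfb*, carries the protease of the alternative C3 convertase. *Cfb* read 9.18, 9.39 and 8.42 in MM-3T3-L1s and 8.08 and 8.27 in controls. All MM-3T3-L1 arrays were above both controls, but replicate 3 exceeded the higher control by far less than the other replicates did. MM-3T3-L1s averaged 9.0 ± 0.513 (SD, n = 3), against 8.18 ± 0.136 (SD, n = 2) for controls. The fold change was 1.77 (95% interval 1.06 to 2.94), or 0.82 on the log2 scale (SE 0.30), and limma's adjusted p was 0.633. The call was lost in the methods' test. It was lost as well without MM-3T3-L1 replicate 1 (0.73) or 2 (0.62) and without control replicate 1 (0.72) or 2 (0.92), where the values are log2 fold changes. Without MM-3T3-L1 replicate 3, which had the lowest weight of the 5 in limma's array weights (0.513), *Cfb* rose by 1.11. Whether *Cfb* and C4 differ in their response was not tested.

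Arrays of the groups lay apart upward for *C4a*, *C4b* and *Cfb* and downward for *C2*, where 11.9% of all probe sets lay apart upward and 12.2% downward. C2, the protease of the classical convertase and the homolog of factor B, is encoded beside *Cfb*. *C2* read 2.26, 1.98 and 2.57 in MM-3T3-L1s and 2.84 and 2.61 in controls, so it was below the background level on all 5 arrays. Its difference of -0.45 on the log2 scale (SE 0.20, adjusted p = 0.664 in limma) did not reach the unadjusted threshold. It passed the p threshold, but not the fold threshold, after renewed quantile normalization (-0.53), median centring of each array (-0.46) or with array weights (-0.50). It passed both without MM-3T3-L1 replicate 3 and with the replicate number as a block, at -0.60 in each, still below the background level. These estimates are the same by construction, since no control has the number 3 and the block sets that array aside.

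The proteases of the C1 complex were well above background and differed by less than the spread between arrays. *C1ra*, the gene of C1r, read 7.41, 7.64 and 7.46 in MM-3T3-L1s and 7.34 and 7.50 in controls, with a fold change of 1.06 (95% interval 0.853 to 1.32). *C1s1*, the gene of C1s, read 8.52, 8.33 and 8.54 in MM-3T3-L1s and 8.43 and 8.65 in controls, with a fold change of 0.946 (95% interval 0.753 to 1.19). The arrays of the groups overlapped for both genes, and both intervals lay inside a change of 1.5-fold in either direction.

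Of the regulators, *Serping1*, which encodes C1 inhibitor, read 6.12, 6.57 and 6.36 in MM-3T3-L1s and 6.03 and 6.24 in controls. The groups overlapped, and the fold change of 1.16 had a 95% interval of 0.87 to 1.54, so a change near the threshold is not excluded. *Cd55* read 2.84, 2.81 and 2.71 in MM-3T3-L1s and 3.76 and 2.64 in controls. Only control replicate 1 was above background. That array alone set the sign of the difference, which was -0.41 on the log2 scale with all arrays (95% interval -1.20 to 0.37) and 0.15 without it. Without control replicate 2 it was -0.97 and met the thresholds for lower.

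**Figure D2:**
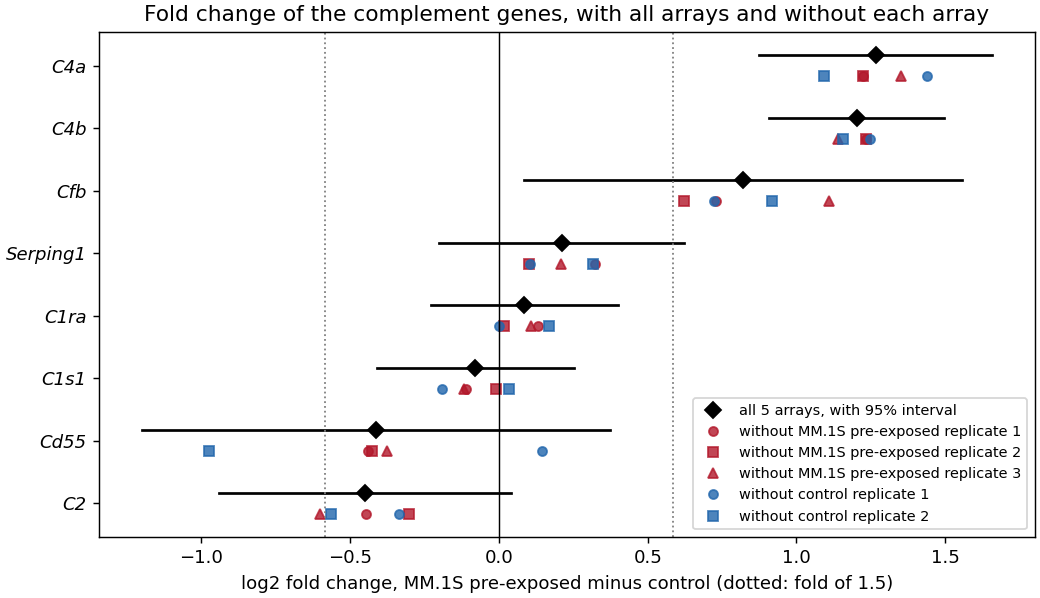
Log2 fold change (x axis, MM-3T3-L1s minus controls) of the 8 complement genes, with all 5 arrays (black diamonds, 95% interval of limma's fit as lines) and without each array in turn (red for MM.1S pre-exposed, blue for control). Dotted lines mark a fold of 1.5. *C4a* stayed between 1.09 and 1.44 and *C4b* between 1.14 and 1.25 whichever array was left out, while *Cfb* ran from 0.62 to 1.11 and *Cd55* from -0.97 to 0.15.

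*C4b*, *C4a*, *Cfb* and *C2* lie in the class III region of the major histocompatibility complex, among genes with other functions. In the RefSeq gene order, 28 genes lie within 2 places of the members on any chromosome, and 15 of these had a named probe set. Of the 15, 1 was called, *Cd55b*, 2 places from *Cd55*. It was lower, as were 1.44% of all probe sets. The others ranged from -0.26 (*Dxo*) to 0.28 in log2 fold change. The upper value belonged to *Stk19*, directly beside *C4a*, which read 7.18, 7.05 and 7.00 in MM-3T3-L1s and 6.76 and 6.83 in controls (adjusted p = 0.656 from limma). *Cyp21a1*, the steroid 21-hydroxylase gene on the opposite side of *C4a*, lay below background with a log2 fold change of -0.06. *Nelfe*, beside *Cfb*, and *Zbtb12*, beside *C2*, had log2 fold changes of -0.05 and 0.08. None of these 4 flanking genes changed by 1.5-fold. No gene within 2 places of *C4b* had a named probe set, so the direct surroundings of *C4b* were not read.

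The rest of the complement system was read from lists of 49 further genes, of which 46 had a named probe set and 19 a mean above background. Of the 46, 3 were higher, 1 was lower and 42 were neither, and their median log2 fold change was 0.08. The shares higher and lower are to be read against 0.91% and 1.44% of all probe sets. Only 1 of the 4 called genes, *Clu*, had a mean above background, and only *Clu* was called by the methods' test. *Cfd*, the gene of factor D, had no named probe set and is not analysed here.

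*Clu* encodes clusterin, a secreted chaperone that also binds the terminal complex and hinders its insertion into membranes. It read 8.46, 8.54 and 8.58 in MM-3T3-L1s and 7.22 and 7.66 in controls. The groups were far apart, at 8.52 ± 0.0605 (SD, n = 3) for MM-3T3-L1s, against 7.44 ± 0.315 (SD, n = 2) for controls. The fold change was 2.12 (95% interval 1.61 to 2.79), or 1.09 on the log2 scale (SE 0.16), with an adjusted p of 0.334. The call held whichever array was left out, at 0.86 to 1.31. Since the study picked *C4a*, *C4b* and *Clu* out of these same arrays, that they were higher is not independent evidence.

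Among the other 13 measured regulators, *Cd55b*, a second mouse copy of the decay-accelerating factor gene, read 3.25, 2.60 and 3.17 in MM-3T3-L1s and 3.79 and 3.87 in controls. All MM-3T3-L1 arrays were below the background level and both controls just above it. The log2 fold change was -0.82 (SE 0.22), and the call was lost without control replicate 1 or 2, at -0.86 and -0.78. *Cpn1*, the catalytic subunit of the carboxypeptidase that inactivates anaphylatoxins, lay below background, with a log2 fold change of 0.58 that fell just short of the fold threshold and passed it without control replicate 1 (0.83) or MM-3T3-L1 replicate 2 (0.75). The remaining regulators, *Cd46*, *Cd59a*, *Cd59b*, *Cr1l* and *Vtn* among them, had p above 0.05.

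In the terminal pathway, whose proteins build the membrane attack complex, 1 of 7 genes was higher, where 0.91% of all probe sets were. This was *C8a*, which lay below background on all arrays and differed by 0.60 on the log2 scale (SE 0.21). The call was lost without control replicate 2 (0.33) and without MM-3T3-L1 replicate 1 (0.67), 2 (0.47) or 3 (0.65). It was lost as well after renewed quantile normalization (0.53) and in the methods' test. *C8g*, the gamma chain of C8, was well above background at 7.95, 7.84 and 7.86 in MM-3T3-L1s and 7.55 and 7.48 in controls. Its fold change of 1.29 (adjusted p = 0.577 from limma) passed the unadjusted p and was below the threshold of 1.5. All 7 genes had a log2 fold change above 0, where the median over all probe sets was 0.01, but 5 of them lay at or below background.

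None of the 14 genes of the classical and lectin routes was called, and 0 had a p of 0.05 or less. The chains of C1q were dim or below background. The smallest p values belonged to *C1qc* (log2 fold change 0.21), *Colec10* (0.25) and *Masp1*, a protease of the lectin route, which read 5.72, 5.52 and 5.39 in MM-3T3-L1s and 5.36 and 5.30 in controls. *Cfp*, the gene of properdin, which stabilises the alternative convertase, had a log2 fold change of -0.04. Of 10 receptor genes, *Vsig4*, a macrophage receptor for C3 fragments, was higher and 9 were neither, where 0.91% of all probe sets were higher. *Vsig4* read 3.39, 3.96 and 3.60 in MM-3T3-L1s and 2.71 and 3.26 in controls, around the background level. Its log2 fold change was 0.67 (SE 0.24), and the call was lost without control replicate 1 (0.39) and without MM-3T3-L1 replicate 2 (0.51) or 3 (0.69). The call was lost as well after renewed quantile normalization (0.60) and in the methods' test.

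**Figure D3:**
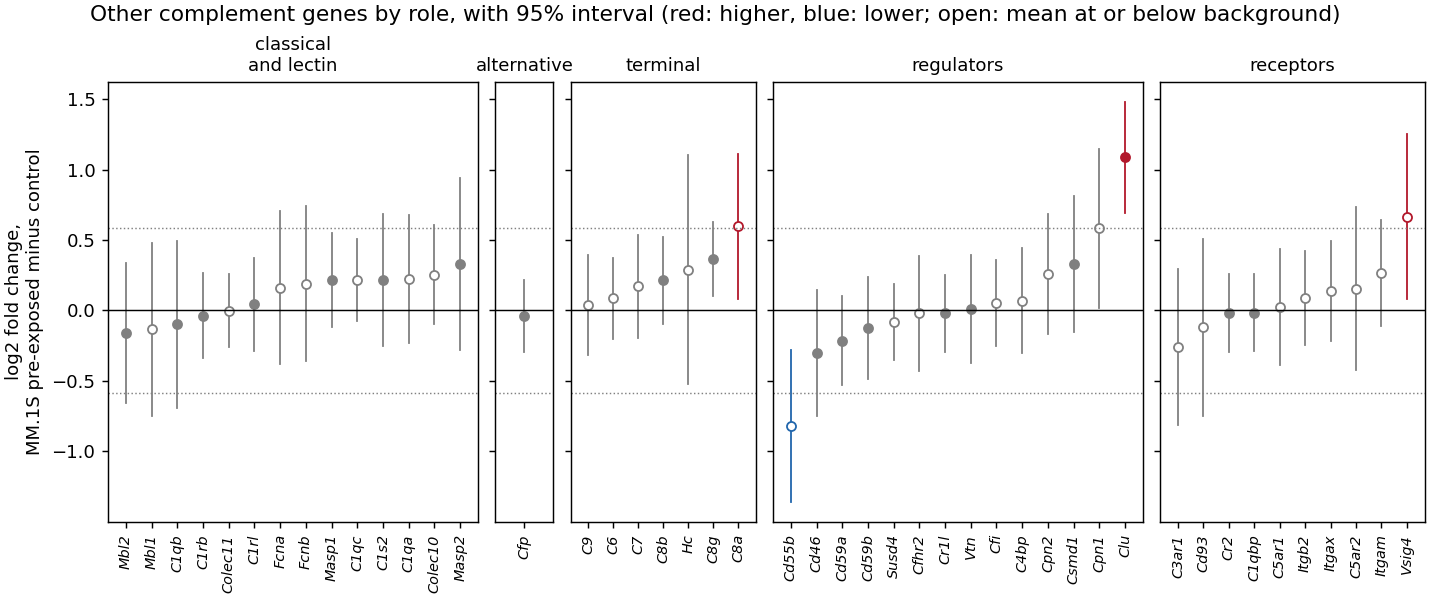
Log2 fold change (y axis, MM-3T3-L1s minus controls) of the 46 other complement genes by role, with 95% intervals of limma's fit. Red marks higher, blue lower and grey neither, open circles have a mean at or below the background level, and dotted lines mark a fold of 1.5. *Clu* stands at 1.09 with a filled circle, while the other called genes, *C8a*, *Vsig4* and *Cd55b*, are open.

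Transcription of *C4b*, *Cfb* and *C3* is known to answer to interleukin-6 type cytokines, interferon-gamma, interleukin-1 and TNF through STAT, C/EBP, IRF and NF-kB factors. Of 30 listed genes of these pathways, 28 were measured, with a median log2 fold change of 0.03. Of the 28, 2 were higher, none was lower and 26 were neither, where 0.91% of all probe sets were higher and 1.44% lower. *Il6*, the cytokine itself, read 5.93, 5.79 and 5.21 in MM-3T3-L1s and 4.54 and 4.81 in controls, which is 0.97 higher on the log2 scale (SE 0.24). *Osmr*, the oncostatin M receptor, read 8.48, 8.48 and 8.17 in MM-3T3-L1s and 6.81 and 7.87 in controls, which is 1.04 higher on the log2 scale (SE 0.31). Limma's adjusted p was 0.528 for *Il6* and 0.583 for *Osmr*. All MM-3T3-L1 arrays were above both controls for each of these 2 genes, as for 11.9% of all probe sets. Of the other cytokine genes, *Il1b*, *Tnf*, *Ifng* and *Osm* lay below background on every array. Among these, *Tnf* lay apart upward, at 2.94, 2.92 and 2.92 in MM-3T3-L1s and 2.73 and 2.65 in controls. *Il6*, which the study also picked from these arrays, lost its call without control replicate 1 (0.83). *Osmr* lost it without control replicate 1 (0.51), and without MM-3T3-L1 replicate 1 (0.99) or 2 (0.98), and in the methods' test.

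Other genes of these pathways shifted by less than 1.5-fold and were picked out after their values had been seen. *Lifr*, the receptor for leukemia inhibitory factor, had a log2 fold change of 0.55 and *Cebpb* one of 0.37, both past the unadjusted p of 0.05, and *Stat3* one of 0.36, which was not. *Irf1*, a factor of interferon responses, stood at -0.30, also past the unadjusted p, and *Jak2* at -0.49, which was not. Their adjusted p lay between 0.626 and 0.663. *Lifr* passed the fold threshold after renewed quantile normalization (0.62), with array weights (0.64) and without MM-3T3-L1 replicate 3 (0.71) or control replicate 2 (0.74). *Nfkb1* had no named probe set and is not analysed here.

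**Figure D4:**
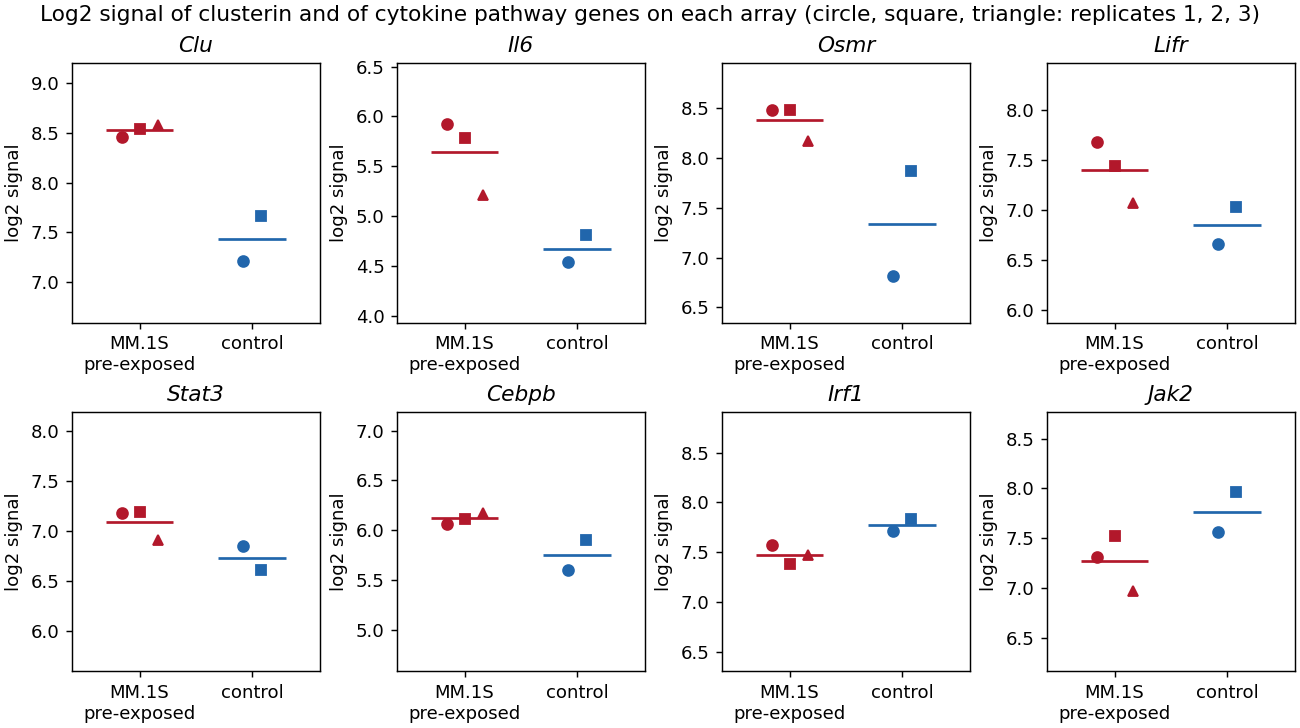
Log2 signal (y axis, each panel spanning the same height) of *Clu* and of 7 cytokine pathway genes on each array, with the 3 MM-3T3-L1 arrays (red) left of the 2 control arrays (blue) and bars at the group means. *Clu*, *Il6*, *Osmr*, *Lifr*, *Stat3* and *Cebpb* have every MM-3T3-L1 array above both controls, and *Irf1* and *Jak2* have every one below. The 7 were chosen for their values, so their separation does not describe the pathways as a whole. Of the 28 measured genes of these pathways, 6 lay apart upward and 3 downward. Of all probe sets, 11.9% lay apart upward and 12.2% downward.

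The genes whose values ran most like those of *C4b* and *Cfb* were found by the root mean square distance of centred log2 signals over the 5 arrays, among 12135 other genes above background. For *C4b* the 5 nearest were *Grem1* (0.14), a secreted BMP antagonist, *Id3* (0.15), *Hp* (0.17), which encodes haptoglobin, *Hivep3* (0.18) and *Frmpd1* (0.18). All 5 were higher in MM-3T3-L1s, as a match to *C4b* requires. For *Cfb* they were *Vstm2a* (0.16), *Ddx21* (0.16), *Il6* (0.16), *Gm5662* (0.16) and *1110008P14Rik* (0.18). Like *Cfb*, all 5 had their lowest MM-3T3-L1 value in replicate 3, as a match to *Cfb* requires. These distances are a description of 5 arrays that share the difference between groups.

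Signals of other cell types were read on the same arrays, where 0.91% of all probe sets were higher and 1.44% lower. Of 12 macrophage markers, 5 had a mean above background and 1 was higher, *Cd14* (log2 fold change 0.83), which lost its call without control replicate 1 (0.57). The log2 of the list's mean linear signal was 4.62 to 4.63 in MM-3T3-L1s and 4.08 to 4.28 in controls, so it moved with C4. The gap was smaller without *Cd14*, a check chosen after the data were seen. The other 11 markers gave 3.66 to 3.84 in MM-3T3-L1s and 3.61 in both controls. Every MM-3T3-L1 array thus still lay above both controls. Of the 12 markers, 10 had a log2 fold change above 0, where the median over all probe sets was 0.01. The other 2 were the defining markers *Adgre1* (-0.07) and *Csf1r* (-0.04), which lay below background on all arrays. *Ptprc* read 4.04 to 4.30 in MM-3T3-L1s and 3.94 to 4.14 in controls. Of 10 markers of plasma and B cells and 7 of endothelium, 2 and 0 had a mean above background and none was called. The array reads mouse genes and MM.1S is a human line, so whether myeloma RNA was carried over was not tested. Of 15 adipocyte markers, 1 was called, *Retn* (resistin), which was lower at -0.63, and this call was lost in the methods' test, with array weights (-0.53) and without any array but MM-3T3-L1 replicate 1 (-0.43 to -0.79 over the arrays left out). The log2 mean signal of 10 preadipocyte and fibroblast markers was 9.77 to 9.87 in MM-3T3-L1s and 10.05 to 10.14 in controls. It ran opposite to C4, and none of the 10 was called. Of these markers, 7 lay apart downward and 2 upward, where 12.2% and 11.9% of all probe sets did. At limma's unadjusted p, 3 passed downward and 1 upward, where 4.11% and 3.48% of all probe sets did. Of the 10, 8 had a log2 fold change below 0, among them *Dlk1* (-0.45), where the median over all probe sets was 0.01. The other 2, *Pdgfrb* (0.35) and *Thy1* (0.12), had one above 0. The part of these shifts in the C4 and *Cfb* values was not tested, and in bulk cultures fewer cells of a type cannot be told from less RNA per cell.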

How the data were processed

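The deposited values are log2 signals, which the authors made from the scans of 5 Clariom S Mouse arrays by RMA, using Partek Genomics Suite 6.17.0918 (background correction, normalization between arrays and 1 summary value per probe set). The RNA input is 50 ng in the labels and 100 ng in the paper's methods. Whether the 5 arrays were normalized alone is not given in the sources used here. All 22206 probe sets were tested with no filter. Symbols came from the platform annotation (19572 probe sets with 1 symbol, 2634 unnamed here), with the probe set of the highest mean where a gene had several. In R 4.3.3, limma 3.58.1 (lmFit, eBayes) compared 3 MM.1S pre-exposed with 2 control arrays, with 3 residual degrees of freedom and 2.79 from the prior, with Benjamini-Hochberg adjustment across every probe set. The script was tested on simulated data. The number of arrays limits the precision.

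The members, lists and tests were chosen with earlier results of these data known. Named genes were all members, listed genes past the thresholds (or the 3 with the smallest p of a list without any), fixed markers, chromosomal neighbours and the 5 nearest profiles. *C8g*, *Cpn1*, *Lifr*, *Cebpb*, *Stat3*, *Irf1*, *Jak2*, *Il1b*, *Tnf*, *Ifng*, *Osm*, *Pdgfrb* and *Thy1* were added after their values were seen. Alternatives were the methods' ANOVA, another variance prior, a background filter, renewed quantile normalization, median centring, a replicate block, array weights, other thresholds, averaged probe sets, C4 as 1 signal and leaving out each array.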

Additional observations from a re-analysis of the deposited data

How the results depend on the processing

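*C4a*, *C4b* and *Clu* kept their direction and their call under every alternative but the adjusted p in place of the unadjusted p, where limma left 0 member genes, 0 other complement genes and 0 probe sets in either direction. Among all probe sets, limma called 202 higher and 320 lower, the methods' ANOVA 104 and 180, a fold change above 2 gave 21 and 54, and no fold threshold gave 772 and 912. Without dim probe sets 121 were higher. Of the other complement genes, 1 was higher and 0 lower with the ANOVA, above a fold of 2 and without dim probe sets, 1 was higher after renewed quantile normalization and 5 without a fold threshold. Whether the replicate numbers pair the arrays is not known. Deviations of same-numbered arrays from their group means correlated at -0.0274 and 0.0603 over probe sets. With 2 controls the deviations of 1 mirror those of the other, so these values cannot decide it. With the replicate block, 1 member was lower, *C2* at -0.60, 3 were higher and 275 and 395 of all probe sets were called. The block sets MM-3T3-L1 replicate 3 aside, so its log2 fold changes equal those without that array. Leaving out 1 array gave 2 to 3 members higher and 0 to 1 lower, 1 to 3 other complement genes higher and 0 to 1 lower, and 216 to 352 probe sets higher and 301 to 415 lower. With the lone array of a group the fit assumes the spread of the other group. Signs of log2 fold changes turned for *Cfp* (0.0309) and *Nelfe* (0.0187) after quantile normalization, and, over the arrays left out, *Cd55* (-0.97 to 0.15), *C1s1* (-0.19 to 0.0331), *Adgre1* (-0.16 to 0.0226), *Cyp21a1* (-0.22 to 0.14), *Plin1* (-0.0623 to 0.32) and *Csf1r* (-0.11 to 0.0453). The cause of these changes was not tested. Each member had 1 probe set, so averaging probe sets changed none of them. Genes near the background level, *C2*, *Cd55*, *Cd55b*, *C8a*, *Cpn1* and *Vsig4*, are limited by signal over background.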
